A study of Mus musculus with 270 samples.

Results

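Lung RNA levels were compared between middle-aged (14 M) and younger adult (8 M) mice. The comparison used 17 of the 270 libraries of the series, 9 lung libraries at 14 M and 8 at 8 M, chosen by the organ and age in their labels, and a gene was tested where 5 or more of the 45 lung libraries reached 10 normalized counts, which left 21257 of 51810 genes. Both groups were male C57BL/6J mice, an inbred laboratory strain, and ages are given in months (M). Each library is polyadenylated RNA from the lung of a single animal, sequenced in bulk, and the same animals also gave the other organs, of which kidney was used for one comparison. A normalized count is a read count per gene that was divided by a size factor for the library, and the log2 difference between groups was taken on log2(normalized count + 1), which understates the change of low genes.

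The adult lung exchanges gas across alveoli lined by flat AT1 cells and surfactant-making AT2 cells, while the conducting airways are lined by ciliated cells, which move mucus with beating axonemes, and by secretory club and goblet cells. Club cells secrete Scgb1a1 protein and carry cytochrome P450 enzymes that detoxify inhaled compounds. Macrophages, neutrophils, and lymphocytes patrol the tissue, and lymphoid cell infiltration is a well-known feature of the ageing lung. In bulk tissue, fewer cells of a type and less RNA per cell cannot be told apart.

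The libraries of both ages differed in more than age. Column names ending in the letter b, whose meaning is not given in the sources used here, belonged to 6 of 9 libraries at 14 M and 1 of 8 at 8 M. The 6 such libraries at 14 M held 3631240 to 6376040 reads and 15236 to 18120 genes with a read, whereas the 3 others at 14 M held 9127950 to 10939500 reads and 17608 to 25930 genes. At 8 M the range was 4806700 to 12169400 reads and 17607 to 25809 genes, and the 1 library with the suffix held 6554900 reads. Age, suffix, and depth moved together and cannot be told apart, and most results below are also given without the 7 libraries that carry the suffix, which leaves 3 libraries at 14 M and 7 at 8 M. Within the suffix libraries no age difference could be tested because 8 M had only 1. The highest correlation over genes of each library with another lung library was 0.844 to 0.977, and its highest with a library of heart, kidney, liver, skeletal muscle, or testis was 0.516 to 0.868. No library held the same values as another.

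**Figure D1:**
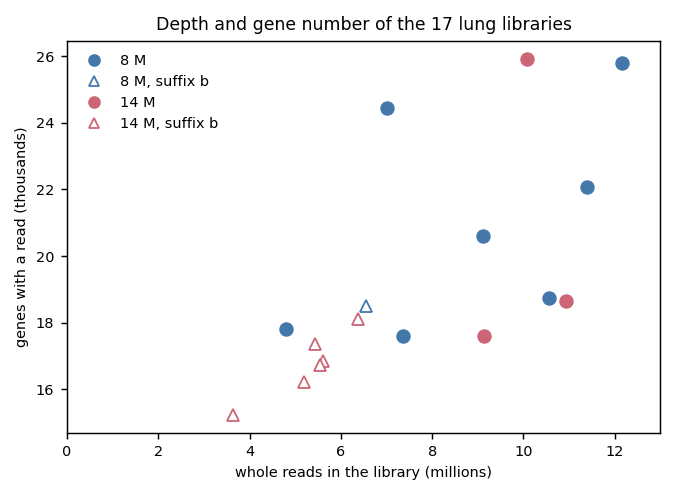
Whole reads per library (x axis, scaled to 1e6 reads) against the number of genes with a read in units of 1000 (y axis) for the 8 lung libraries at 8 M and the 9 at 14 M, with triangles for column names ending in b. The 6 triangles at 14 M lie between 3631240 and 6376040 reads, below the 3 circles of the same age.

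No gene passed an adjusted p of 0.05 between 14 M and 8 M (limma, 0 of 21257, a background of 0%). The smallest adjusted p was 0.360. At an unadjusted p of at most 0.05, 355 genes were higher at 14 M (1.67% of the genes tested) and 1259 were lower (5.92%). This tally moved with single libraries: without replicate 5 at 14 M, the shallowest of the 17, it was 1046 in both directions together, and without replicate 7 at 14 M, which had the most genes with a read, it was 2457. edgeR also called 0 genes after adjustment and 960 before it, and DESeq2 called 17 after adjustment, of which 10 had a median under 5 normalized counts in both groups. The other 7 included Satb1, Msantd1, and Zfyve19, which are described below.

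The lower genes lay mostly among weakly expressed genes. Over all genes the median log2 difference was -0.28, and it was -0.05 after quantile normalization, -0.03 in edgeR and -0.07 in DESeq2. Among the 11679 genes with a mean under 100 normalized counts the median was -0.62, and 36 were higher against 968 lower. Among the 9578 genes with a mean of at least 100, the median was -0.04, with 319 higher (3.33%) and 291 lower (3.04%). The split between directions moved with the scaling, from 355 higher and 1259 lower to 586 and 502 after quantile normalization, 555 and 405 in edgeR and 641 and 631 in DESeq2. It was 763 and 569 after length and GC content were regressed out, and 791 and 804 with the number of genes with a read as a covariate. Differences given below are therefore to be read against the median of -0.28, or of -0.04 where a gene has a mean of at least 100. A list median from another fit is to be read against the median of all genes in that fit.

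**Figure D2:**
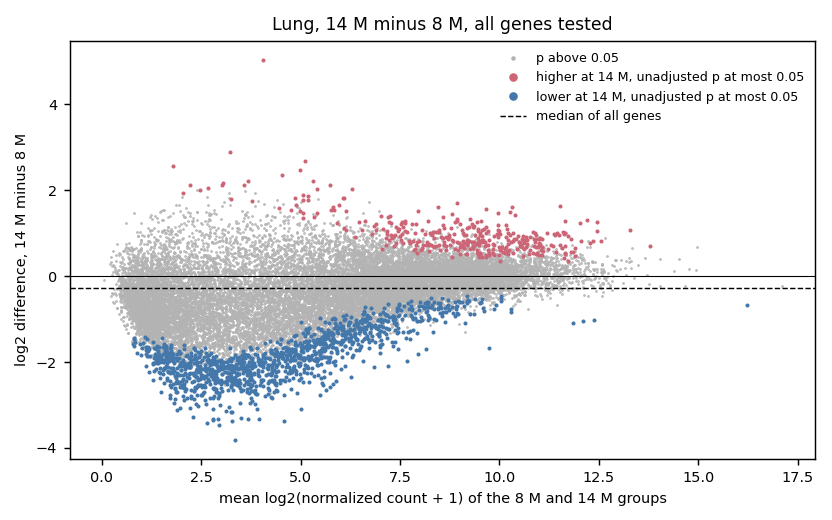
Log2 difference between 14 M and 8 M (y axis) against the mean log2(normalized count + 1) of both groups (x axis) for the 21257 genes tested, with the 355 higher and 1259 lower genes at an unadjusted p of at most 0.05 in colour. Lower genes sit mostly at low levels and higher genes mostly at high levels, and the dashed line marks the median difference of -0.28.

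Without the 7 suffix libraries, 127 genes were higher (0.597%) and 369 lower (1.74%) at an unadjusted p of at most 0.05, and the median over all genes was 0.01. Of the 355 genes higher in the full comparison, 323 kept their sign and 15 kept an unadjusted p of at most 0.05, and their median difference was 0.29 in place of 0.88. Of the 1259 lower genes, 1135 kept their sign and 152 their p, with a median of -0.79 in place of -1.90. The reduced comparison shares its libraries with the full one and has fewer of them, so it is a description and not a second test.

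Genes that were higher and lower also differed in structure. Among genes with a mean of at least 100 normalized counts, the median gene span (first to last base of the gene, introns included) was 77.7 kb for the higher genes, 22.3 kb for the lower genes and 40.2 kb for all. The median GC content of their longest transcripts was 47.8%, 51.0% and 48.2%. A fit on values corrected per library for length and GC content gave a median of 0.07 over all genes. The correction also removed each library's mean deviation over genes. The values of the airway and xenobiotic lists under this fit are given beside them. RNA quality was not tested.

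Of the 12 genes with the smallest p among those higher at 14 M, those reported here were Plcl2, Satb1, Zfp239, Rubcnl, Scml4, Prkca, Nxpe3, Arhgap15, Ly86, Dock10, and Aqp7, with log2 differences of 0.81 to 2.02 and adjusted p of 0.427 to 0.517 (limma). They had been picked for their p, so their direction is a description. Each had a smaller difference without the suffix libraries, from 0.13 for Arhgap15 to 1.03 for Aqp7.

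Plcl2 (chr17:50509403-50688484, plus strand, GRCm38) encodes a catalytically inactive phospholipase C-like protein that dampens B-cell receptor signalling. Its levels at 8 M were 264, 939 and 1879 normalized counts as the lowest, the median, and the highest library. At 14 M they were 922, 2110.3 and 5738. The groups overlapped, and 5 of the 9 libraries at 14 M exceeded every library at 8 M. The log2 difference was 1.42 ± 0.36 (SE, adjusted p = 0.427, limma). Without the suffix libraries it was 0.72 ± 0.41, and the 3 libraries left at 14 M read 922, 1733 and 1746.

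Satb1 (chr17:51736187-51833290, minus strand) is a chromatin organiser of T-cell development. Its lowest, median and highest levels were 195, 341 and 478 at 8 M and 414, 592 and 1278 at 14 M. All 9 libraries at 14 M lay above the 8 M median. The difference of 0.82 ± 0.22 had an adjusted p of 0.427 in limma and 0.0208 in DESeq2, and it was 0.41 ± 0.25 without the suffix libraries.

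Rubcnl (chr14:75016027-75052532, plus strand), an autophagy-related protein gene, ran from 33.2 to 171 with a median of 127 at 8 M and from 163 to 397 with a median of 245 at 14 M. The groups were nearly separate, with 8 of 9 libraries at 14 M above the highest at 8 M. The 3 libraries without the suffix at 14 M read 163, 245 and 276. The log2 difference was 1.15 ± 0.33 (adjusted p = 0.464, limma) and 0.75 ± 0.36 without the suffix libraries.

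Arhgap15 and Prkca showed how closely some differences followed the suffix. Arhgap15 (chr2:43748824-44395953, plus strand) encodes a GTPase-activating protein for Rac in leukocytes. Its 6 suffix libraries at 14 M ran from 5479 to 8319.6 normalized counts, while the 3 others read 2130.2, 2233 and 2879, inside the 8 M range of 1632 to 3732. The log2 difference was 1.01 ± 0.30 in all libraries and 0.13 ± 0.33 without the suffix. Prkca, which encodes protein kinase C alpha, ran from 3748 to 9886 in the suffix libraries at 14 M and read 2172, 2698 and 2717 in the others, against 1702 to 3244 at 8 M. Its difference went from 0.95 ± 0.28 to 0.32 ± 0.28. For both genes, only the libraries with the suffix were above the highest library at 8 M.

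Scml4, a Polycomb-type protein gene, had the same distribution, with 970.1 to 1539 normalized counts in the suffix libraries at 14 M and 371, 409 and 409 in the others, against 188 to 566 at 8 M. Dock10 is a guanine nucleotide exchange factor of lymphocytes. Its highest level at 8 M was 3947, and at 14 M it ran from 3854 to 9148 in the suffix libraries and from 2004 to 3703 in the others. Ly86, which encodes the MD-1 partner of a Toll-like receptor homologue, had medians of 218 at 8 M and 668 at 14 M, with 3 libraries at 14 M above the 8 M maximum of 862.

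The study named 22 immune and metabolic genes of the lung from these same samples, so their direction is not independent evidence. All 22 were tested here, and 9 were higher and 0 lower at an unadjusted p of at most 0.05, beside backgrounds of 1.67% and 5.92%. Their median log2 difference was 0.76 against -0.28 over all genes, and 17 of the 22 differences were above 0. With the suffix as a term in the fit the median was 0.40 and 6 were higher. Without the suffix libraries the median was 0.23, with 0 higher and 1 lower.

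Alox5, which makes leukotriene precursors, and Ikzf1, a lymphoid transcription factor, kept most of their difference without the suffix. Alox5 read 8.71, 114 and 193 at 8 M (lowest, median, highest) and 178, 192 and 606 at 14 M, a difference of 1.38 ± 0.43 (adjusted p = 0.535). For Ikzf1 the levels were 454, 748 and 989 against 795, 1166 and 3299, a difference of 0.92 ± 0.29 (adjusted p = 0.559), with 7 of 9 libraries at 14 M above the 8 M maximum. Without the suffix libraries the differences were 1.06 ± 0.58 and 0.68 ± 0.38. The 3 libraries without it read 182, 188 and 192 for Alox5, below its 8 M maximum of 193. For Ikzf1 they read 1017, 1131 and 1361, above its 8 M maximum of 989. The lowest Alox5 value at 8 M came from replicate 2, and the next lowest was 80.5, so its difference leans on that library.

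The differences of 3 other genes of the same group that myeloid cells express were smaller than those of Alox5 and Ikzf1. Cybb, the catalytic subunit of the phagocyte NADPH oxidase, differed by 0.85 ± 0.34, Cx3cr1, the fractalkine receptor, by 0.64 ± 0.28, and the integrin subunit gene Itgam by 0.74 ± 0.36. Adjusted p values were 0.574, 0.621 and 0.655 in limma. Itgam was the one of these 3 whose sign turned without the suffix libraries (-0.22 ± 0.44), where 14 M read 160.0, 222 and 384 against a median of 272 over all 8 M libraries.

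T-cell and B-cell genes were mixed. Lck, the kinase that starts T-cell receptor signalling, had medians of 60.4 at 8 M and 173 at 14 M and a difference of 1.28 ± 0.54 (adjusted p = 0.585), which went to -0.01 ± 0.70 without the suffix libraries. Cd3d, a subunit of the T-cell receptor complex, was lower by -1.99 ± 0.96. The B-cell inhibitory receptor gene Cd22 ran from 45.7 to 256 at 8 M and from 67.3 to 1083 at 14 M, with 7 of 9 libraries above the 8 M range. Its difference was 1.29 ± 0.42 (adjusted p = 0.559, limma) and 0.26 ± 0.46 without the suffix. The complement receptor gene Cr2 differed by 0.79 ± 0.37 in all libraries and by -0.33 ± 0.42 without the suffix.

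As whole lists, 18 T-cell genes had 2 higher and 1 lower at an unadjusted p of at most 0.05 and a median of 0.09, or 0.31 without the suffix libraries. For 10 B-cell genes, 2 were higher and 0 lower and the median was 0.37, which became -0.22 without the suffix libraries. Over all genes, 1.67% were higher and 5.92% lower. Summed B-cell markers made up 0.0121% to 0.0252% of reads at 8 M and 0.0118% to 0.0398% at 14 M, and in the 3 libraries at 14 M without the suffix their median share was 0.0164% against 0.0228% over all libraries at 8 M. T-cell markers summed to 0.01% to 0.0193% at 8 M and 0.0122% to 0.034% at 14 M. The groups overlapped for both lists.

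The antibody genes tested showed no common direction. Of 12 immunoglobulin constant genes, 8 were tested, and Igkc, Iglc1, and Iglc3 read 0 in all 17 libraries. Of the 8, 0 passed an unadjusted p of 0.05, and their median of -0.20 became 0.49 after quantile normalization. Of 346 variable segments in the table, 197 read 0 in all 17 libraries, 14 passed the filter and 0 passed an unadjusted p of 0.05. The 2 with the smallest p were Igkv3-2, with a median of 0.335 normalized counts at 8 M and 0 at 14 M, and Igkv14-111, with 3.41 and 0. Jchain, the joining chain of secreted antibodies, ran from 287 to 1119 at 8 M and from 149 to 3666.7 at 14 M, a difference of 0.73 ± 0.59 (adjusted p = 0.818).

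MHC class II genes, which present antigen, had 2 of 8 higher, beside 1.67% over all genes. Their median was 0.12, or 0.43 without the suffix libraries, where 0 were higher. Ciita, the master activator of the class, read 152, 205 and 506 at 8 M (lowest, median, highest) and 238, 442 and 1451 at 14 M, a difference of 0.89 ± 0.42 (adjusted p = 0.642). H2-DMb1, a peptide-loading chain with a near-identical neighbour that can share its reads, differed by 0.77 ± 0.38. Without the suffix libraries, the differences were 0.49 ± 0.43 and 0.38 ± 0.49.

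Interferon-response genes had differences in both directions. Ifit1 read 79.8 to 218 at 8 M and 143 to 542 at 14 M, with 7 of 9 libraries at 14 M above the 8 M range and a difference of 1.26 ± 0.41 (adjusted p = 0.559, limma). Ifi44 was lower by -1.73 ± 0.66 and Irf7, a transcription factor of the response, by -1.90 ± 0.91. Of 19 genes tested, 1 was higher and 2 lower at an unadjusted p of at most 0.05, shares near the background of 1.67% and 5.92% over all genes, and the median of -0.40 was 0.02 in edgeR and 0.28 without the suffix libraries. Without the suffix, Irf7 read 3.25, 7.12 and 15.2 at 14 M and its difference was 0.10 ± 1.08.

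Of the neutrophil genes tested, 6 differences were below 0 and 1, that of S100a9, was above 0. Ltf, which encodes the iron-binding granule protein lactoferrin and is also made by airway glands, had a lowest, median and highest level of 60.0, 652 and 1896 at 8 M and 21.4, 188 and 879 at 14 M. Its difference was -1.71 ± 0.54 (adjusted p = 0.559, limma) and -1.34 ± 0.66 without the suffix libraries. S100a8, a calprotectin subunit, was 1 of 3 genes whose groups did not overlap (0.0141% of the genes tested), with 4.5 to 27.6 normalized counts at 8 M and 0 to 3.36 at 14 M. S100a9, which encodes the other subunit, differed by 0.80 ± 0.53 in the opposite direction and by -0.70 ± 0.64 without the suffix. The other 2 genes without overlap were Leng9 and Rpl29, named after their values were seen, and Rpl29 has processed copies that can share its reads. Of 7 neutrophil genes tested, 0 were higher and 2 lower, beside 1.67% and 5.92% over all genes. Their median was -1.30, which was -0.38 after quantile normalization, -0.71 in edgeR and -0.80 without the suffix libraries.

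Differences of airway genes were mostly below 0. Of 10 ciliated-cell genes, 7 were lower and 0 higher at an unadjusted p of at most 0.05 (background 5.92% and 1.67%), and the median log2 difference was -1.30 against -0.28 over all genes. Of 8 club- and goblet-cell genes, 4 were lower and 0 higher, with a median of -0.88. No member passed the adjusted threshold. All 10 ciliated genes had a mean of at least 100 normalized counts, where the median of all genes was -0.04 and 3.04% were lower. After quantile normalization and in edgeR and DESeq2, 4 ciliated genes were lower, and the medians were -1.16, -0.86 and -0.88. With the libraries of both ages thinned to the reads of the shallowest, 6 were lower with a median of -1.23. With log2 depth as a covariate, 5 were lower with a median of -0.96. Over all genes the medians in these fits were -0.22 and -0.17. For the club and goblet list, 3 were lower in each, with medians of -0.87 and -0.72. With the suffix as a term, 2 ciliated genes were lower with a median of -0.75. With length and GC content regressed out, 2 ciliated genes were lower, also with a median of -0.75. For the club and goblet list the latter fits left 2 lower each, with medians of -0.61 and -0.35. Without the suffix libraries, the medians were -0.42 and -0.44, with 0 and 1 genes lower. Over all genes the median was -0.15 with the suffix as a term. It was 0.07 with length and GC content regressed out and 0.01 without the suffix libraries.

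**Figure D3:**
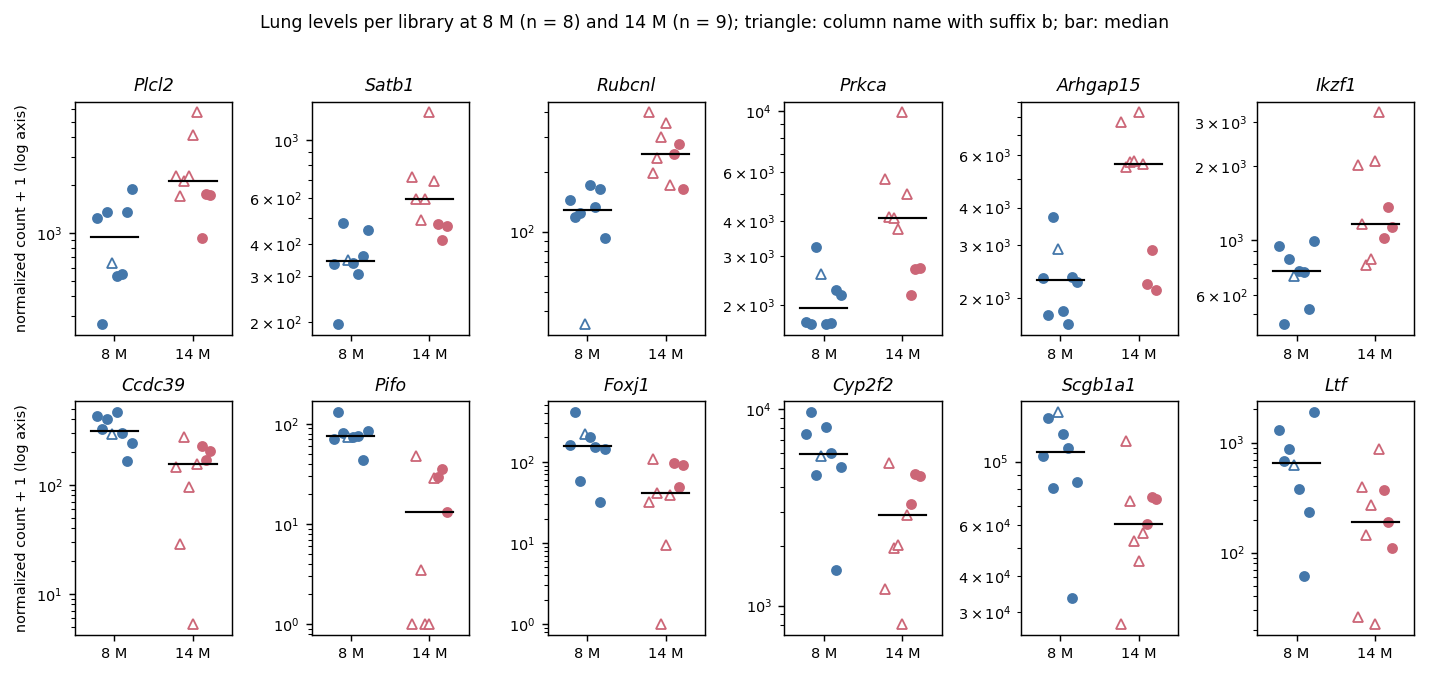
Normalized count plus 1 on a log axis for 12 genes in each lung library at 8 M (8 libraries) and 14 M (9 libraries), with triangles for libraries with the suffix b and bars for medians. For Arhgap15 the triangles at 14 M lie at 5479 and above, while the 3 circles lie at 2879 and below, inside the 8 M range.

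Promoter windows of ciliated genes are shown because RFX factors, which drive ciliogenesis, bind motifs that contain the letters GTTGCC. The windows hold 250 bases before and 50 after the start of a RefSeq transcript on GRCm38.p6, which need not be the start of the gene as GENCODE gives it, and a gene was counted as holding the letters where any of its windows did. Capitals mark each match of these letters on either strand, so that GGCAAC is a match on the opposite strand. Tekt1 has 2 matches, starting 35 and 15 bases before the start site, in the 1 of its 2 windows that holds the letters, and Ccdc39, with 1 window, has none. Of the 10 ciliated genes, 7 have a window and 3 of these 7 hold a match (Dynlrb2, Sntn, and Tekt1), against 14.1% of 27025 genes. A match is a description of the letters only, and variants of these letters were not searched.
Tekt1, chr11:72361833-72362132, minus strand: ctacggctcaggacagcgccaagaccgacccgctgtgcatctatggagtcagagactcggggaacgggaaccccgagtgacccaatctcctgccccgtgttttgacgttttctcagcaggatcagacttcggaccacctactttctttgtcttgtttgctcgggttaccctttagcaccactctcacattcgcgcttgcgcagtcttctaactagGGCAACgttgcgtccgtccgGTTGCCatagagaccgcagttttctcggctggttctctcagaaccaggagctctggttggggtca
Ccdc39, chr3:33844261-33844560, minus strand: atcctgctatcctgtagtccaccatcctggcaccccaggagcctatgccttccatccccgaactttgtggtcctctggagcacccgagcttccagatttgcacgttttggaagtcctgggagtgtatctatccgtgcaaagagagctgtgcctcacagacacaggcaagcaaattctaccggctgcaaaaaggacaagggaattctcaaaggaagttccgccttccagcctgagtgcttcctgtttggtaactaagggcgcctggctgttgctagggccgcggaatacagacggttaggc

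Pifo (chr3:105996957-106014646, minus strand) encodes a protein of the ciliary base, is not a member of the ciliated list, and was among the 12 lower genes with the smallest p. Its lowest, median, and highest levels were 42.5, 74.4 and 131 at 8 M and 0, 12.3 and 46.6 at 14 M. In 8 of 9 libraries at 14 M it was below the lowest at 8 M, and 3 libraries, all with the suffix, were at 0. The log2 difference was -3.37 ± 0.86 (adjusted p = 0.427, limma). The 3 libraries without the suffix read 12.3, 28.6 and 34.1, all below the 8 M range, and the difference without the suffix was -1.67 ± 0.63.

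Ccdc39 (chr3:33812362-33844310, minus strand) encodes a ruler protein that places dynein arms and radial spokes on the axoneme. It read 165, 311 and 466 at 8 M (lowest, median, highest) and 4.28, 154 and 275 at 14 M, and the 3 libraries without the suffix at 14 M read 169, 204 and 225. The difference was -1.70 ± 0.45 (adjusted p = 0.427) in all libraries and -0.67 ± 0.34 without the suffix. The groups overlapped, and 5 libraries at 14 M were below the 8 M range.

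Foxj1 (chr11:116330704-116335399, minus strand), the master transcription factor of motile cilia, had levels of 30.7, 156 and 409.9 at 8 M and 0, 40.1 and 106 at 14 M. Its difference was -2.16 ± 0.72 (adjusted p = 0.559, limma) and -0.76 ± 0.60 without the suffix libraries, where 14 M read 47.9, 89.3 and 96.2. Tekt1, a tektin of axonemal microtubules, differed by -1.88 ± 0.72 and Cfap126, a cilia-associated protein gene, by -1.02 ± 0.34. Without the suffix the latter values were -0.48 ± 0.41 and -0.78 ± 0.42. The other lower genes were Rsph1 (-1.29), Dynlrb2 (-1.31), and Sntn (-1.46), while the dynein heavy chain genes Dnah5 and Dnah9 differed by -0.11 and 0.13.

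Summed over the 10 genes, the ciliated list held 0.0595% to 0.141% of reads at 8 M and 0.0424% to 0.126% at 14 M. The 3 libraries without the suffix at 14 M had a median share of 0.117%, close to the median of 0.113% at 8 M. The share is weighted by the most abundant genes, and the median over genes on the log2 scale is not.

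Scgb1a1 (chr19:9083636-9087958, minus strand), the secretoglobin that defines club cells, read 33615, 107881 and 148757 normalized counts at 8 M (lowest, median, highest) and 27238, 60550.5 and 117862 at 14 M. The log2 difference was -0.67 ± 0.31 (adjusted p = 0.642, limma) and -0.37 ± 0.66 without the suffix libraries, where 14 M read 60550.5, 74302 and 75173. The groups overlapped, and 1 library at 14 M was below the 8 M range.

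Cyp2f2 (chr7:27119909-27133660, plus strand), the club-cell cytochrome P450, read 1518, 5872 and 9668 at 8 M and 803, 2885 and 5332 at 14 M, a difference of -1.10 ± 0.34 (adjusted p = 0.499). Bpifb1, a secreted defence protein of the airway, differed by -2.08 ± 0.70 and read 108, 115 and 119 in the 3 libraries without the suffix at 14 M, against a median of 376 at 8 M. Muc5ac, the goblet-cell mucin gene, was near the detection limit, with medians of 13.8 and 0. Differences without the suffix libraries were -0.38 ± 0.44 for Cyp2f2, -1.38 ± 0.62 for Bpifb1 and -1.13 ± 1.32 for Muc5ac. The share of reads from the 8 club and goblet genes ran from 0.617% to 2.37% at 8 M and from 0.39% to 1.81% at 14 M.

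Genes of xenobiotic metabolism, many of them club-cell enzymes, had 7 of 22 lower and 0 higher, beside 5.92% and 1.67% over all genes. Their median of -0.62 became -0.31 without the suffix libraries, where 3 were lower, and -0.22 with length and GC content regressed out, where 1 was lower. The median over all genes moved as well, from -0.28 to 0.01 and 0.07 in these fits. Gstp1, a glutathione transferase with near-identical copies in the mouse, read 32.6, 95.7 and 224 at 8 M and 6.42, 35.7 and 173 at 14 M. Its difference was -1.60 ± 0.51 (adjusted p = 0.559) and -1.31 ± 0.47 without the suffix libraries. Another transferase gene, Gstm1, differed by -0.75 ± 0.28 and by -0.67 ± 0.36 without the suffix. Aldh1a1 and Aldh3a1 are aldehyde dehydrogenase genes, with differences of -1.03 ± 0.38 and -2.07 ± 0.73 that went to -0.33 ± 0.49 and -0.17 ± 0.52. Leaving out the suffix libraries thus moved Aldh3a1 most among these 4.

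**Figure D4:**
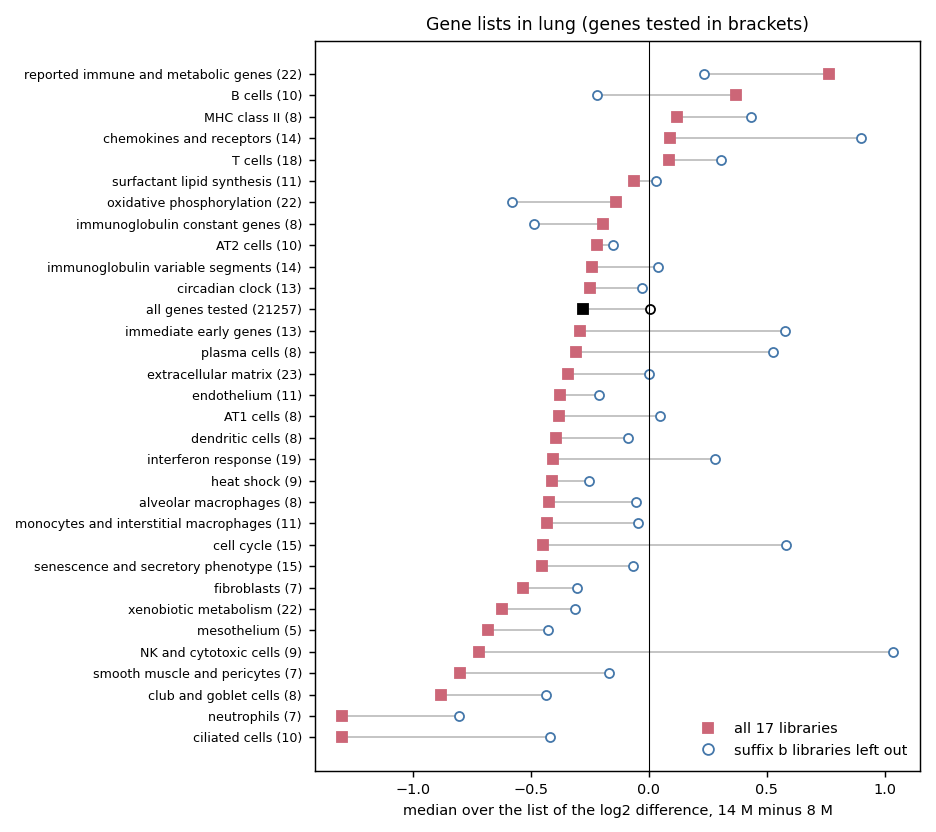
Median log2 difference between 14 M and 8 M over the tested genes of each list, with all 17 libraries (squares) and with the suffix libraries left out (circles), and all 21257 genes in black. The ciliated list has a median of -1.30, which moves to -0.42 without the suffix libraries, and the median of all genes moves from -0.28 to 0.01.

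Alveolar lists had few genes past an unadjusted p of 0.05. Of 10 AT2 genes, 0 were higher or lower at an unadjusted p of at most 0.05, and their median of -0.22 was near that of all genes. The 9 AT2 genes with a mean of at least 100 had a median of -0.24, against -0.04 over all genes at that level. Sftpb, a surfactant protein gene, read 959, 2664 and 8255 at 8 M and 1261, 1483 and 4957 at 14 M, a difference of -0.52 ± 0.38 (adjusted p = 0.791). The 11 genes of surfactant lipid synthesis had a median of -0.06 and differences from -0.24 to 0.28. The 8 AT1 genes, all with a mean of at least 100, had a median of -0.38, and 6 differences were below 0. Without the suffix libraries their median was 0.05. Among them 1 was lower and 0 higher, beside 5.92% and 1.67% over all genes. The lower one was the water channel gene Aqp5 (-1.66 ± 0.79, adjusted p = 0.642, limma), with 1 library at 14 M at 0. Cldn18, a tight-junction gene, had 8 of 9 libraries at 14 M above the 8 M maximum of 1742, yet the difference of 0.70 ± 0.38 had an adjusted p of 0.689 and was 0.21 ± 0.49 without the suffix.

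Stromal lists had medians below that of all genes, and their counts of lower genes stand beside 5.92% over all genes. Among 7 smooth muscle and pericyte genes, 1 was lower, the intermediate filament gene Des (-0.80 ± 0.38), and the median was -0.80, which became -0.17 with 0 lower without the suffix libraries. Acta2, smooth muscle actin, ran from 501 to 1007 at 8 M and from 92 to 574 in the suffix libraries at 14 M, while the 3 other libraries at 14 M read 619, 634 and 1122, so that its difference went from -1.11 ± 0.63 to -0.03 ± 0.52. Of 23 extracellular matrix genes, 2 were lower, with a median of -0.34 that became -0.000732 without the suffix libraries. Col5a2, a fibrillar collagen gene, went from -0.79 ± 0.37 to -0.01 ± 0.39 without the suffix. In fibroblasts, 1 of 7 genes was lower, Dpt, at medians of 15.7 and 0, and the list median went from -0.54 to -0.30. The mesothelial gene Msln differed by -2.25 ± 0.84, with 3 libraries at 14 M at 0, and by -0.55 ± 0.72 without the suffix. None of 11 endothelial genes passed an unadjusted p of 0.05, and Tek, the angiopoietin receptor, differed by -0.52 ± 0.33.

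The remaining 10 of the 12 lower genes with the smallest p, besides Pifo and Ccdc39, were Msantd1, Cavin3, Bvht, Cdc42ep2, Mpv17l2, Zfyve19, Sorbs3, Uhrf1bp1, Slc2a4rg-ps, and Gtpbp6. Their log2 differences ran from -3.80 to -2.12 with adjusted p of 0.360 to 0.427 (limma). Cavin3, a component of caveolae, read 15.4, 36.7 and 120.4 at 8 M and 0, 1.25 and 26 at 14 M, and the 3 libraries without the suffix read 4.87, 6.47 and 26. Msantd1 read 5.71 to 80.7 at 8 M and 0 to 6.23 at 14 M, with 8 of 9 libraries below the 8 M range and a difference of -3.35 ± 0.75, or -2.63 ± 1.01 without the suffix. Zfyve19, an abscission checkpoint gene, differed by -2.84 ± 0.71 and by -1.60 ± 0.59. Uhrf1bp1 lost its difference, from -2.44 ± 0.63 to -0.04 ± 0.48. For Mpv17l2, 7 of 9 libraries at 14 M read 0, among them replicate 9, the deepest at that age, and for Gtpbp6 6 of 9 did.

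Senescence and clock genes had calls at shares near the background of 5.92% lower. Cdkn2a, which encodes the cell-cycle inhibitor p16, was near the detection limit, with 0, 20.5 and 79.5 normalized counts at 8 M and 0, 1.25 and 40.8 at 14 M, a difference of -1.58 ± 1.08 (adjusted p = 0.774). Cdkn1a, which encodes p21, had medians of 222 and 214 and a difference of -0.98 ± 0.66, with 1 library at 14 M at 0 and 0.08 ± 0.58 without the suffix libraries. The neighbouring inhibitor gene Cdkn2b was the 1 of 15 senescence genes lower at an unadjusted p of at most 0.05, with medians of 18.8 and 0 and a difference of -3.41 ± 0.81 (adjusted p = 0.422), or -2.01 ± 0.95 without the suffix libraries, and 0 were higher. Of 13 clock genes, 1 was lower, the repressor Nr1d1 (-1.40 ± 0.69, and -0.44 ± 0.58 without the suffix libraries). Per1, a light- and stress-responsive clock gene, differed by -1.07 ± 0.56 (adjusted p = 0.675), and by -2.12 ± 0.68 without the suffix libraries.

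The lists that follow had 2 calls or fewer, beside 1.67% higher and 5.92% lower over all genes. Heat shock genes had 1 lower of 9, Dnajb1, at -0.998 ± 0.44, or -0.30 ± 0.53 without the suffix libraries. Oxidative phosphorylation genes had 1 lower of 22, Atp5j, at -0.74 ± 0.35. Their median of -0.14 became -0.58 without the suffix libraries, where 6 were lower, beside 1.74% over all genes. Of 15 cell-cycle genes, 1 was lower, the checkpoint kinase gene Bub1b, and the median of -0.45 turned to 0.27 in quantile normalization and edgeR and to 0.58 without the suffix libraries. Dendritic cells had 1 lower of 8, Cd209a, and cytotoxic cells 1 lower of 9, the perforin gene Prf1, at medians of 10.0 and 0. Prf1 differed by -1.95 ± 0.95, or -1.02 ± 1.28 without the suffix libraries. The cytotoxic list had a median of -0.72, with 8 differences below 0. Its median turned to 1.04 without the suffix libraries, where 1 was higher and 0 lower, beside 0.597% and 1.74% over all genes. Of 11 monocyte and interstitial macrophage genes, 2 were higher (Cx3cr1 and Itgam), with a median of -0.43 that was 0.03 in quantile normalization and edgeR. Alveolar macrophages, plasma cells, and immediate early genes had no call in either direction among 8, 8 and 13 genes.

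Genes listed as markers of other tissues also differed between libraries, and whether their RNA came from the lung itself was not tested. Myh4, a fast skeletal muscle myosin gene, had medians of 0 at 8 M and 257 at 14 M and the largest difference of all genes tested, 5.04 ± 1.77 (adjusted p = 0.559, limma). All 7 striated muscle genes tested had a median difference of 1.42, which became -0.77 with the suffix as a term, and their summed share of reads ran from 0.00111% to 0.00799% at 8 M and from 0.000128% to 0.127% at 14 M. The highest share belonged to replicate 7, without the suffix, and the 2 others without it held 0.000537% and 0.000128%, while the 6 suffix libraries held 0.009% to 0.0342%. Of 9 cardiac muscle genes, 1 was higher and 3 lower, and of 6 adipocyte genes 2 were lower, beside 1.67% higher and 5.92% lower over all genes. The myelin gene Mbp had medians of 1102 and 3225. No marker of the striated muscle list was at 0 in all 17 libraries, and Actc1 of the cardiac list and Gfap of the brain list were. So were some genes of lung lists, such as Tcf21 of fibroblasts and Timp3 of the extracellular matrix. Such a 0 is therefore not read as absence of a tissue. The part of other tissue, if any was present, in the immune and airway differences was not tested.

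Over the other ages, the airway lists and the study's immune and metabolic genes went both up and down from one age to the next, while some other immune lists were highest at 26 M. The level of a list in a library is the median over its genes of the log2 level minus the gene's mean over all 45 lung libraries. For the ciliated list the medians were 0.46, -0.18, 0.82, -0.14, -0.05 and 0.63 in age order from 3 M to 26 M, so that 8 M was the highest age and 14 M was near 5 M. For the club and goblet list they were 0.61, -0.30, 0.76, 0.12, -0.16 and 0.22. The immune and metabolic genes named by the study stood at -0.48, 0.06, -0.35, 0.39, 1.12 and 0.18, highest at 20 M, where 4 of 7 libraries carried the suffix. At 14 M this level ran from 0.18 to 1.23 in the 6 suffix libraries and from -0.66 to 0.39 in the 3 others, against -1.03 to 0.16 at 8 M. In the same age order the MHC class II list stood at -0.02, -0.08, 0.16, 0.16, 0.27 and 0.93, the T-cell list at -0.31, 0.16, -0.17, -0.37, 0.94 and 1.36, and the immunoglobulin constant genes at -1.44, -0.17, -0.48, -0.42, 1.61 and 1.75. These levels were not tested.

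**Figure D5:**
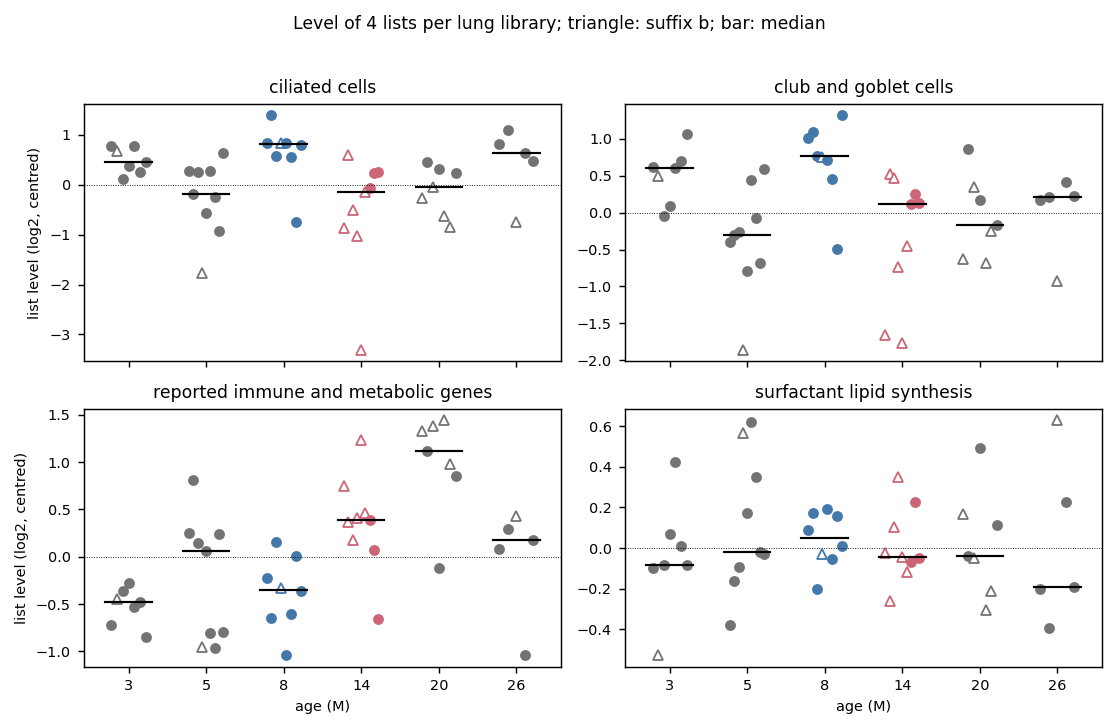
Level of 4 gene lists in each of the 45 lung libraries (y axis, log2, centred on the mean of all libraries) by age in months (x axis), with triangles for libraries with the suffix b and bars for medians. In the ciliated list, 8 M has the highest median, 0.82, and the lowest library, at -3.30, is a suffix library of 14 M.

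Some single genes had their highest median at 20 M. Cx3cr1 had medians of 2223 at 20 M and 1443 at 26 M, against 1056 at 14 M. Itgam stood at 1169 and 553, against 493.2. Foxj1 returned from 40.1 at 14 M to 99.9 at 20 M and 171 at 26 M, against 156 at 8 M. These medians are descriptions and were not tested.

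The promoter of Itgam is shown as an example of the myeloid genes, with capitals for the letters GAGGAAG, a core bound by ETS factors such as PU.1, on either strand. It holds 2 matches, starting 84 bases before and 31 bases after the start site. Among the 22 named genes, 17 have a window and 3 of these hold the letters (Cyp2a12, Itgam, and Lck), beside 15.4% of 27025 genes.
Itgam, chr7:128062390-128062689, plus strand: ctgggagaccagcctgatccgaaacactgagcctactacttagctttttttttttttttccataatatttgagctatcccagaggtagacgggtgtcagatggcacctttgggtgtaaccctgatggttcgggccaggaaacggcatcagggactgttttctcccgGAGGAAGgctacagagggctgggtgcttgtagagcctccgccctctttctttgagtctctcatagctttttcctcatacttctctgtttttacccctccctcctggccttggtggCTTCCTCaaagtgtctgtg

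Kidney libraries of the same mice gave a comparison organ. Of 16297 genes tested in both organs, 0 had a difference between 14 M and 8 M that itself differed between lung and kidney at an adjusted p of 0.05 (limma on the within-mouse difference, smallest adjusted p 0.0788), and 1944 did so unadjusted (11.9%). In kidney alone, 105 genes passed the adjusted threshold, 93 of them higher at 14 M. Arhgap15 differed by 1.01 in lung and -0.92 in kidney, and the lung value minus the kidney value was 1.94 ± 0.40 (adjusted p = 0.135). Foxj1 gave -2.16 and 1.21, with -3.37 ± 0.83 between organs (adjusted p = 0.139). Both genes had been picked for a small p in lung, and this contrast uses the same lung values, so both results are descriptions. The suffix and depth of the lung libraries enter this contrast in full, and so does the suffix of the kidney columns, which 2 of 8 carried at 8 M and 0 of 9 at 14 M.

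Library-level measures did not separate the ages after correction. The number of genes with a read was 20699 ± 3131 (SD, n = 8) at 8 M and 18079 ± 3114 (SD, n = 9) at 14 M (exact permutation test, two-sided, p = 0.106, adjusted p = 0.212). The first principal component, 33.0% of the variance, gave an exact permutation p of 0.277, and the second, 11.4%, gave p = 0.0438 with an adjusted p of 0.175 over the 4 measures. Mean log2 reads were 22.98 ± 0.46 (SD, n = 8) at 8 M and 22.63 ± 0.52 (SD, n = 9) at 14 M (exact permutation p = 0.165, adjusted p = 0.221).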

How the data were processed

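The lung tables hold normalized counts, a signal that the authors made by dividing read counts per Ensembl gene by DESeq2 size factors within each organ. Per the submitters' processing notes and the study's methods, single reads of oligo-dT-selected RNA were trimmed, aligned to GRCm38 with HISAT2 2.1.0 and counted with GenomicAlignments. Libraries were amplified by PCR and no molecular identifiers are described, so a level of 0 is read as a limit of counting, and strand use in counting is not given in the sources used here. Some markers of lung cells, such as Tcf21 and Ms4a1, read 0 in all 17 libraries whatever their depth, and the cause was not tested. Whole reads were recovered from the smallest step of each column (100% of values within 0.001 of a whole number) and gave 3631240 to 12169400 reads per library at 8 M and 14 M. No column was left without a sample (0).

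Here, log2(normalized count + 1) of all 45 lung libraries was fitted with limma 3.58.1 (R 4.3.3, trended prior, 6 age groups), with the contrast 14 M minus 8 M, with Benjamini-Hochberg adjustment over all 21257 genes and a threshold of 0.05. edgeR 4.0.16 (quasi-likelihood, TMM) and DESeq2 1.42.0 on the recovered reads were alternatives, with others given in the closing section. Library measures were compared by exact permutation over 24310 assignments. Lung and kidney of a mouse were compared by the within-mouse difference of log2 values. Fits were tested on simulated data. Gene coordinates are from GENCODE M21 on GRCm38. Members, gene lists, and alternatives were chosen with earlier results of these data known. Named genes are the 12 higher and 12 lower with the smallest p among genes with a group median of at least 20 and a symbol that is not a predicted model, up to 4 members of each list by p, the genes that the study named in lung, Cdkn1a, Cdkn2a, and 2 variable segments. Lists were described by counts and medians, with no set test. Errors after ± are standard errors of the limma fit over mice unless given as SD. Replicates are separate mice numbered in accession order. Some genes that the rule selects are not reported here.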

Additional observations from a re-analysis of the deposited data

Results flagged for a closer look

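Among 162 groups examined (77 named genes and 4 library measures at 8 M and 14 M), 20 had a highest or lowest library whose gap to the next exceeded Dixon's 95% critical value, where chance gives about 1 in 20. Replicate 7 at 14 M stood high for genes with a read (25930), the first principal component (238.7) and Prf1 (17.1 normalized counts). Replicate 5 at 14 M, the shallowest library, stood at 0 for Aqp5, Bpifb1 and Cdkn1a and high for Satb1 (1278), and replicate 6 was high for Alox5 (606). At 8 M, replicate 3 was low for Zfyve19 (22.6), Cd3d (1.42) and Cd209a (0). Replicate 7 at 8 M was low for Cyp2f2 (1518), Scgb1a1 (33615), Cfap126 (166) and Cldn18 (905), the first 2 being club-cell genes. Replicate 8 at 8 M was low for Zfp239 (3.81) and Mpv17l2 (0), replicate 4, the one with the suffix b, for Rubcnl (33.2) and Nr1d1 (7.75), and replicate 2 for Alox5 (8.71). The part of depth and tissue sampling in these values was not tested.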

How the results depend on the processing

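Age, suffix b and depth moved together at 14 M and cannot be told apart with these libraries, and 3 libraries at 14 M without the suffix limit what can be seen there. The count of genes past an adjusted p of 0.05 was 0, and it was 17 in DESeq2 and 1 (Gm47322) without libraries of over 24000 genes with a read, an alternative chosen after seeing the data. The 1614 genes at an unadjusted p of at most 0.05 became 960 in edgeR, 571 with the suffix as a term, 496 without the suffix libraries, 873 with log2 depth as a covariate and 604 over genes with a mean of at least 100, and leaving out single libraries gave 1046 to 2457, with 0 after adjustment each time. The cause was not tested, except that 604 comes from fewer genes tested. Between lung and kidney the count of 0 became 1 with a pseudocount of 0.1 (Gm11488) and 2 with 8 M and 14 M alone (Gm11488 and Myl1). Without the suffix libraries 7 named genes changed sign, Cr2 (-0.33), Lck (-0.00938), Irf7 (0.10), Itgam (-0.22), Cdkn1a (0.0758), Ighd (-0.15) and S100a9 (-0.70), and so did log2 reads (0.23) and the first principal component (2.35). The log2 difference of Sftpb was 0.0876 after length and GC content were regressed out, chosen after seeing the data. In all, 2426 values of the 77 named genes kept their direction and side of the threshold over the 32 alternatives, 3 passed it in DESeq2 alone, and 28 list medians moved by more than the SD between libraries, 9 of them without the suffix libraries. Thinning, the other covariates, pseudocount 0.1, no filter and quantile normalization left both counts within 1.5 times. No paired analysis was possible because replicate numbers only name animals in accession order and each mouse has one age.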
